A study of Mus musculus with 10 samples.

Results

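The genes described are 10 immune receptors of the mouse: 6 members of the SLAM family (Slamf7, Cd84, Ly9, Cd48, Slamf8 and Slamf9), 3 members of the CD300 family (Cd300lb, Cd300lf and Cd300a) and Cd72. They were listed by name, with earlier results of these data known, out of 19749 genes that the array names. Each was read from the probe that the platform annotation assigns to that gene alone. Where a gene has several probes, the one with the highest mean log2 intensity over the 10 arrays was chosen by that value. Each of the 10 genes had a single probe, so no measured value picked the probe. A gene was tested if its log2 intensity exceeded 5.27, the median of the table, on at least 2 arrays, and 9 of the 10 were among the 10792 genes that did. Cd300lf exceeded it on 1 array and was not tested. Cd300lb exceeded it on 2 arrays only, both from WT mice on cuprizone.

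Gene expression was measured on 10 arrays, 1 for each sample, of RNA from flow-sorted microglia, the resident macrophages of the brain. All mice were males labelled 8 to 12 weeks old and C57BL/6, and they either lacked Trem2 (Trem2-/-), a lipid-sensing receptor of microglia, or were wild type (WT). The diet held 0.2% cuprizone, a compound that binds copper and causes loss of oligodendrocytes and myelin. Each genotype gave 5 arrays: a control, 4 weeks on cuprizone, 12 weeks on cuprizone, 4 weeks and then 2 weeks of recovery on normal food, and 12 weeks and then the same recovery. The age label is the same for all arrays, so it cannot be the age at sampling after 12 weeks of feeding with recovery. Age at sampling may therefore vary with feeding time. The groups were Trem2-/- on cuprizone (2 arrays), Trem2-/- in recovery (2), the Trem2-/- control (1), WT on cuprizone (2), WT in recovery (2) and the WT control (1). The submitters' sample numbers form a first run of 6 arrays (both controls and all 4-week arrays) and a second run of 4 (all 12-week arrays). Nothing in the labels says whether an array is an animal or a pool, and p-values therefore measure only the spread between these samples, which may be technical. Each group of 2 joins an array titled 4 weeks and one titled 12 weeks. Where groups were compared without a block, that spread is thus the difference between feeding times, and between runs, not between replicates. The sources used here state neither how Trem2 was deleted nor which markers were sorted.

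SLAM receptors are cell-surface immunoglobulin proteins, most of which bind a copy of themselves on a neighbouring cell. Slamf7, Cd84 and Ly9 carry tyrosine switch motifs in their tails that recruit small adaptors, SAP or EAT-2 depending on the receptor. Cd48 is anchored by a lipid and is the ligand of CD244 and CD2, and Slamf8 and Slamf9 have short tails without the motifs. CD300 receptors bind phospholipids exposed on dying cells. Cd300a and Cd300lf carry inhibitory motifs (ITIMs), whereas Cd300lb passes activating signals through the adaptor DAP12 (Tyrobp), which is also the adaptor of Trem2. Cd72 is a lectin-like inhibitory receptor best known on B cells, where it binds the semaphorin CD100 (Sema4d) and recruits the phosphatase SHP-1 (Ptpn6).

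The genotype label was borne out by Trem2 itself, at 7.53, 7.78, 7.47, 7.85 and 7.26 log2 intensity in Trem2-/- arrays (control, 4 weeks, 12 weeks, 4 weeks with recovery, 12 weeks with recovery), against 10.72, 10.81, 10.70, 10.67 and 10.66 in WT arrays. Array medians lay between 37.6 and 39.3 on the linear intensity scale, and the number of arrays limits the precision. Of the microglia markers, 9 of 9 exceeded the table median on every array, with a median level of 11.18 to 11.55 in Trem2-/- arrays and 10.78 to 11.46 in WT arrays. Markers of other cells that can carry these receptors varied by cell type. The median of 7 B cell markers was 4.33 to 4.73 in Trem2-/- arrays and 4.30 to 4.53 in WT arrays, that of 11 T and NK cell markers 3.38 to 4.22 and 3.53 to 4.06, that of 9 dendritic cell markers 4.42 to 5.05 and 4.49 to 5.27, and that of 5 monocyte markers 4.10 to 5.65 and 4.34 to 5.98. Of the B cell markers, Cd79b exceeded the table median on all 10 arrays (6.63 to 7.39 in Trem2-/- and 6.34 to 7.15 in WT) and Ighm on 4, and the other 5, Cd79a, Ms4a1 and Pax5 among them, on none. Of the T and NK cell markers, Cd3e exceeded it on 7 arrays and Nkg7 on 4, and the other 9, Cd3d, Cd3g and Cd8a among them, on none. Of the 9 dendritic cell markers, 2 exceeded the table median on every array and 4 on none. The 2 were Cd209a (mean 6.42 in Trem2-/- and 6.19 in WT) and Ccr7 (6.11 and 5.97). Of the 5 monocyte markers, 0 exceeded the table median on every array and 2 on none. The median of 8 border macrophage markers was 6.21 to 7.87 in Trem2-/- arrays and 6.59 to 8.11 in WT arrays, with 7 or 8 of the markers above the table median on each array. Neutrophil markers (8 genes) had a median of 7.57 to 9.71 on the 6 arrays of the controls and 4-week mice and 4.07 to 4.91 on the 4 arrays of the 12-week mice. The part of these cells in the results below was not tested. In such bulk samples, fewer cells of a type and less RNA per cell cannot be told apart.

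The receptor genes lay lower in Trem2-/- microglia than in WT microglia in nearly every matched pair of arrays, with a larger median gap on cuprizone (-1.11 on the log2 scale) than in recovery (-0.42). Over the 5 matched conditions, 3 of the 9 tested members passed the test and all 3 were lower in Trem2-/-: Slamf7 (log2 difference -1.66), Cd72 (-1.49) and Cd300lb (-0.98). Of these, Cd300lb had entered the test only through WT cuprizone arrays, so its call is a description. Over all tested genes, 0.259% were called, 0.185% lower and 0.0741% higher. The median difference of the 9 tested members was -0.66 on the log2 scale, against -0.0018 over all genes. The members were chosen with earlier results of these data known. Here and below, shares and medians over all genes therefore describe that list and do not test it. Trem2-/- lay below WT in all 5 conditions for 7 of the 10 members (Slamf7, Cd84, Ly9, Cd48, Slamf9, Cd300lb and Cd72), a pattern shown by 6.1% of all tested genes. In the other 3 members (Slamf8, Cd300lf and Cd300a) it did so in 4 of 5. None of the 3 calls held when the Trem2-/- cuprizone array titled 12 weeks was counted by its time label, which says 4 weeks: limma's adjusted p was then 0.0631 for Cd72 and 0.170 for Slamf7 and Cd300lb. The test was limma's, with condition as a block, Benjamini-Hochberg adjusted over 10792 genes at a threshold of 0.05. With 1 array per genotype and condition, its spread is the variation of the genotype gap between conditions, not between replicates.

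**Figure D1:**
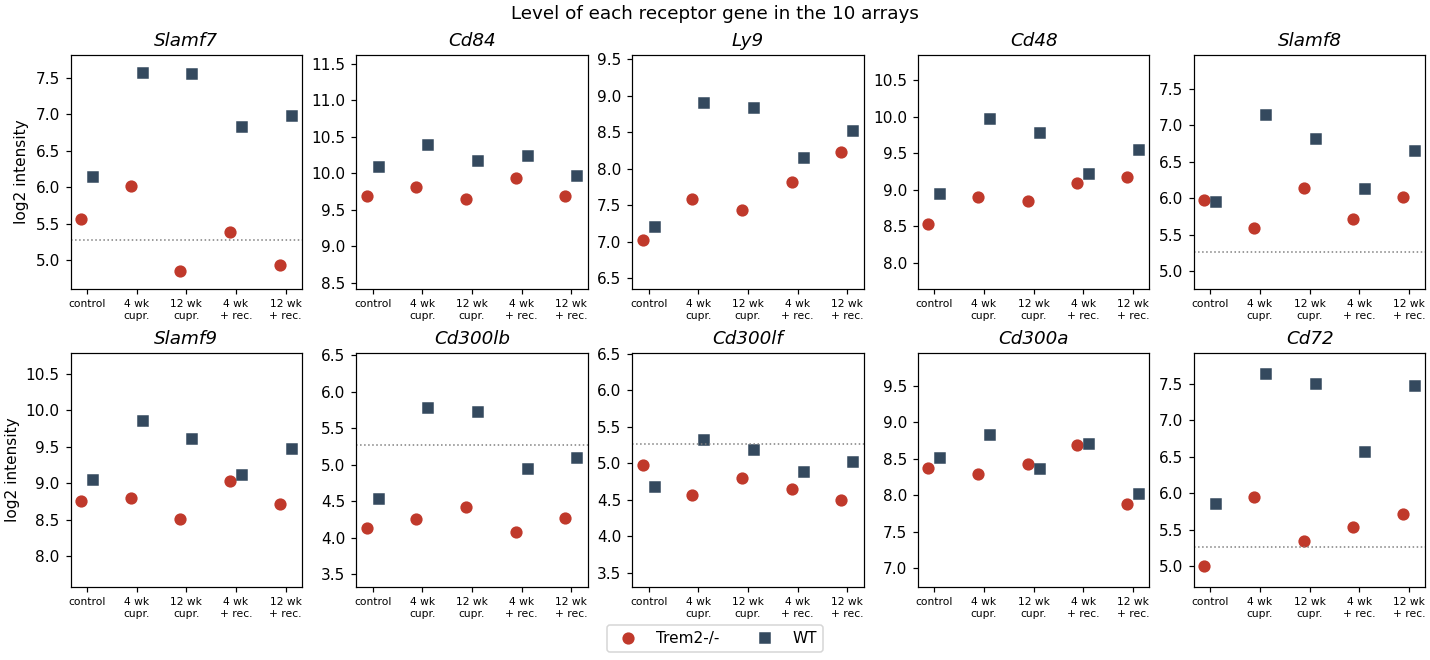
Log2 intensity of the 10 receptor genes (one panel each) in 5 Trem2-/- arrays (red circles) and 5 WT arrays (dark squares), by diet condition; each point is 1 array and the dotted line is the table's median of 5.27. Panels share the height of their axis but not its position, and in most panels the WT arrays on cuprizone stand highest.

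**Figure D2:**
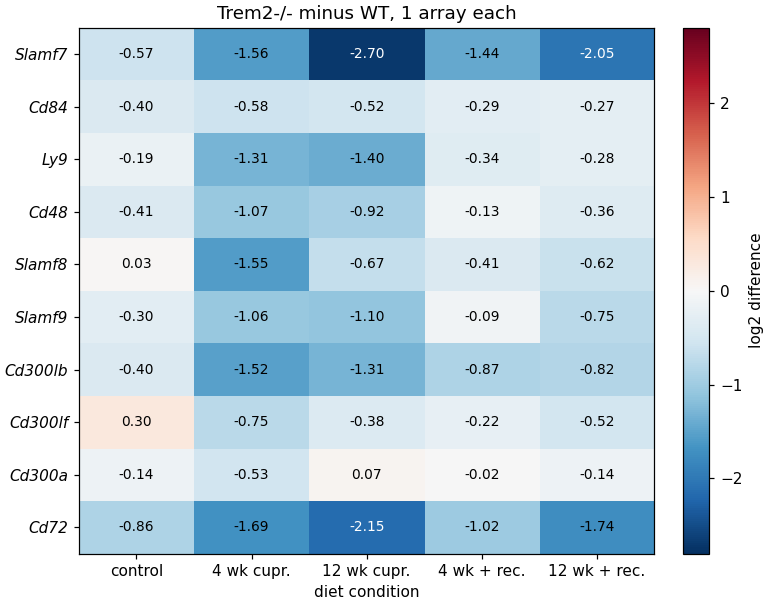
Difference of the 1 Trem2-/- array from the 1 WT array of the same diet condition (columns) for each receptor gene (rows), on the log2 scale, with no test. Blue cells mark lower values in Trem2-/-; the lowest value is -2.70, for Slamf7 after 12 weeks of cuprizone.

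Slamf7, a self-binding receptor of natural killer cells, plasma cells and macrophages, had the widest genotype gap. Its log2 intensity was 5.57, 6.01, 4.85, 5.39 and 4.93 in Trem2-/- microglia (control, 4 weeks, 12 weeks, 4 weeks with recovery, 12 weeks with recovery), against 6.14, 7.56, 7.55, 6.82 and 6.98 in WT microglia. All 5 Trem2-/- arrays lay below all 5 WT arrays, and both Trem2-/- arrays of 12-week mice lay under the table median, where differences of dim probes can be compressed. The matched difference was -1.66 ± 0.24 (SE, limma, adjusted p = 0.0236), and the group levels were 5.35 ± 0.47 in Trem2-/- and 7.01 ± 0.59 in WT (SD, n = 5 each). Within the first run it was -1.19 ± 0.19 over 3 pairs (limma, adjusted p = 0.271), and within the second -2.37 ± 0.22 over 2 pairs (limma, adjusted p = 0.00279). Here and for the genes below, a p-value from 2 pairs rests mostly on the spread that limma borrows from all genes. The second run also includes the Trem2-/- cuprizone array whose title and time label conflict. The call ended without any one of the 8 cuprizone or recovery arrays.

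Cd72, the inhibitory lectin-like receptor, had the next widest gap. It measured 5.0, 5.95, 5.35, 5.53 and 5.72 in Trem2-/- microglia, against 5.86, 7.64, 7.50, 6.56 and 7.46 in WT microglia, in the same order of conditions. The groups overlapped only through the WT control, which lay below the Trem2-/- array at 4 weeks of cuprizone. The matched difference was -1.49 ± 0.17 (SE, limma, adjusted p = 0.0102), with group levels of 5.51 ± 0.36 in Trem2-/- and 7.0 ± 0.77 in WT (SD, n = 5 each). It was -1.19 ± 0.17 within the first run (limma, adjusted p = 0.150) and -1.95 ± 0.20 within the second (limma, adjusted p = 0.00498). The limit given for the second run of Slamf7 applies here too. The call ended without either array of 4 weeks on cuprizone and held without any other single array.

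Cd300lb, the DAP12-coupled member of the CD300 family, was dim. It measured 4.13, 4.26, 4.42, 4.08 and 4.28 in Trem2-/- microglia, against 4.53, 5.78, 5.72, 4.94 and 5.10 in WT microglia. All Trem2-/- arrays lay below all WT arrays and below the table median, so the difference is not read as a fold, and the Trem2-/- values spread less than the WT values. The matched difference was -0.98 ± 0.15 (SE, limma, adjusted p = 0.0346), with group levels of 4.23 ± 0.13 in Trem2-/- and 5.21 ± 0.53 in WT (SD, n = 5 each). Because the gene entered the test only through the WT cuprizone arrays, it had to differ there, and its calls are given as a description. With no filter on dim genes its adjusted p was 0.0232 (limma). Within the first run the difference was -0.93 ± 0.20 (limma, adjusted p = 0.482), and within the second -1.06 ± 0.20 (limma, adjusted p = 0.0843). The call ended without any one of the 8 arrays of cuprizone or recovery.

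Among the SLAM genes with tyrosine motifs, Ly9 and Cd84 gave smaller matched gaps that missed the threshold. Ly9, a self-binding receptor of lymphocytes and macrophages, measured 7.02, 7.59, 7.43, 7.81 and 8.23 in Trem2-/- microglia, against 7.20, 8.90, 8.82, 8.15 and 8.51 in WT microglia. The genotypes stood apart on cuprizone and close together in the controls and in recovery (-0.70 ± 0.19, limma, adjusted p = 0.204). Cd84, a self-binding receptor of myeloid and B cells, measured 9.68, 9.81, 9.65, 9.94 and 9.68 in Trem2-/- microglia, against 10.08, 10.39, 10.16, 10.23 and 9.96 in WT microglia. Its groups did not overlap, but the gap was small and much alike over conditions (-0.41 ± 0.09, limma, adjusted p = 0.124).

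Cd48, the ligand of CD244 and CD2, measured 8.53, 8.90, 8.85, 9.09 and 9.18 in Trem2-/- microglia, against 8.94, 9.97, 9.78, 9.22 and 9.54 in WT microglia. Its matched difference was -0.58 ± 0.14 (limma, adjusted p = 0.157), and Trem2-/- recovery arrays overlapped the WT control. The short-tailed members were alike in size. Slamf8 measured 5.98, 5.59, 6.14, 5.71 and 6.02 in Trem2-/- microglia, against 5.95, 7.14, 6.82, 6.12 and 6.65 in WT microglia. Its controls were level, and its matched difference was -0.65 ± 0.18 (limma, adjusted p = 0.23). Slamf9 measured 8.75, 8.80, 8.51, 9.03 and 8.72 in Trem2-/- microglia, against 9.05, 9.86, 9.60, 9.11 and 9.47 in WT microglia. The Slamf9 groups did not overlap, though the Trem2-/- array of 4 weeks with recovery nearly met the WT control (-0.66 ± 0.15, limma, adjusted p = 0.142).

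Averaged over the 5 matched conditions, the ITIM-bearing CD300 genes differed least, though Cd300lf was too dim to be tested. Cd300a measured 8.38, 8.29, 8.43, 8.69 and 7.87 in Trem2-/- microglia, against 8.51, 8.82, 8.36, 8.71 and 8.02 in WT microglia. Its levels followed the diet condition more closely than the genotype, with the lowest value of each genotype after 12 weeks with recovery (-0.15 ± 0.11, limma, adjusted p = 0.66). Cd300lf, below the table median on 9 arrays, measured 4.98, 4.57, 4.80, 4.65 and 4.49 in Trem2-/- microglia, against 4.68, 5.32, 5.18, 4.87 and 5.01 in WT microglia. It was lower in Trem2-/- in 4 conditions and higher in the controls. With no filter on dim genes its matched difference was -0.32 ± 0.14 (limma, adjusted p = 0.577). Of the 10 members, 4 had no overlap between all Trem2-/- and all WT arrays (Slamf7, Slamf9, Cd84 and Cd300lb), against 0.584% of the genes tested. Among them, Cd300lb had entered the test only through WT cuprizone arrays.

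On cuprizone, every tested member was lower in Trem2-/- than in WT, by a median of 1.11 on the log2 scale, but the sole call was that of Cd300lb (-1.42 ± 0.18, limma, adjusted p = 0.02), which had entered the test through the WT arrays compared. The other 8 gave 0 calls, against 0.324% of all genes called lower. The Cd300lb call ended without any one of the 4 cuprizone arrays (limma, adjusted p = 0.163 to 0.173), and the gene was not tested when at least 5 arrays had to exceed the table median. Both Trem2-/- arrays lay below both WT arrays for 8 of the 9 tested members and for Cd300lf, a pattern of 15.4% of all genes. Cd300a was the exception. The next largest gaps were those of Slamf7 (-2.13 ± 0.35, limma, adjusted p = 0.0671), Cd72 (-1.92 ± 0.32, 0.0676) and Ly9 (-1.35 ± 0.22, 0.0637). Slamf8 (-1.11 ± 0.27), Slamf9 (-1.08 ± 0.22), Cd48 (-0.99 ± 0.19) and Cd84 (-0.55 ± 0.20) had adjusted p-values of 0.119 to 0.952 by limma. When the titled feeding time was added as a block, 7 members were called lower, against 1.28% of all genes: Cd300lb (limma, adjusted p = 0.00139), Slamf7 (0.0043), Ly9 (0.00622), Cd72 (0.00975), Cd48 (0.0189), Slamf9 (0.0249) and Slamf8 (0.0393). For the Trem2-/- cuprizone array titled 12 weeks the time label says 4 weeks, and with the block set to that label 4 were called, against 0.491% of all genes called lower.

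**Figure D3:**
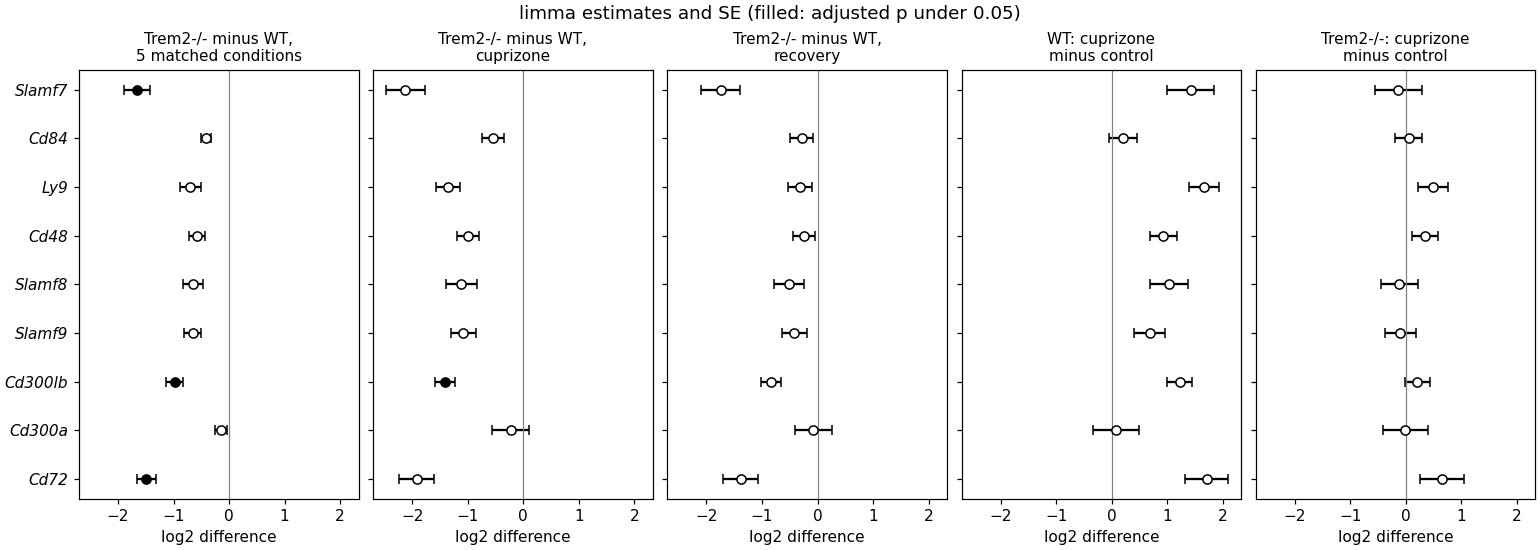
Estimated log2 differences (points) with SE (bars) from limma for the 9 tested receptor genes in 5 comparisons; filled points have an adjusted p under 0.05. The 3 filled points of the first panel are Slamf7, Cd300lb and Cd72, and that of the second is Cd300lb.

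In recovery no member passed the test in limma, against 0.0278% of all genes called lower, and 3 of 9 had an unadjusted p under 0.05, against 1.92% of all genes. The largest gaps were again those of Slamf7 (-1.74 ± 0.35, limma, adjusted p = 0.807), Cd72 (-1.38 ± 0.32) and Cd300lb (-0.84 ± 0.18, limma, adjusted p = 0.973). Slamf8 (-0.52 ± 0.27), Slamf9 (-0.42 ± 0.22), Ly9 (-0.31 ± 0.22), Cd84 (-0.28 ± 0.20), Cd48 (-0.25 ± 0.19) and Cd300a (-0.08 ± 0.33) lay closer to 0. Both Trem2-/- arrays lay below both WT arrays for 7 of the 9 tested members, all but Ly9 and Cd300a, and for Cd300lf. That pattern was shown by 12.4% of all genes. With feeding time as a block the count of members called stayed at 0, against 0.0834% of all genes called lower.

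Cuprizone raised no member past the threshold in either genotype, but the direction in WT was shared. In Trem2-/- microglia 5 of the 9 tested members were higher on cuprizone than in the control and 4 lower, with a median of 0.05 on the log2 scale. In WT microglia all 9 were higher, with a median of 1.03, against 0.0095 over all genes. One of them, Cd300lb, had entered the test only through the WT cuprizone arrays, so it had to be higher there. Of all genes, 0% were called in Trem2-/- and 0.148% were called higher in WT. An unadjusted p under 0.05 was reached by 0 of 9 members in Trem2-/-, against 0.927% of all genes, and by 7 of 9 in WT, against 4.36%.

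Both WT cuprizone arrays lay above the WT control for 8 of the 9 tested members and for Cd300lf, against 34.1% of all genes, with Cd300a the exception. For Cd300lb the filter on dim genes had fixed this result. Relative to its own control, Cd72 was higher by 0.95 and 0.34 at 4 and 12 weeks of cuprizone in Trem2-/-, against 1.78 and 1.64 in WT. Ly9 was higher by 0.57 and 0.41 in Trem2-/-, against 1.70 and 1.62 in WT. Slamf7 differed by 0.44 and -0.71 in Trem2-/-, against 1.43 and 1.41 in WT. The WT arrays of both feeding times thus stood close to each other for these 3 genes, whereas the Trem2-/- arrays of Slamf7 lay on either side of their control. Cd300lb differed by 0.13 and 0.29 in Trem2-/-, against 1.25 and 1.20 in WT, and Slamf8 by -0.39 and 0.16 in Trem2-/-, against 1.19 and 0.87 in WT.

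**Figure D4:**
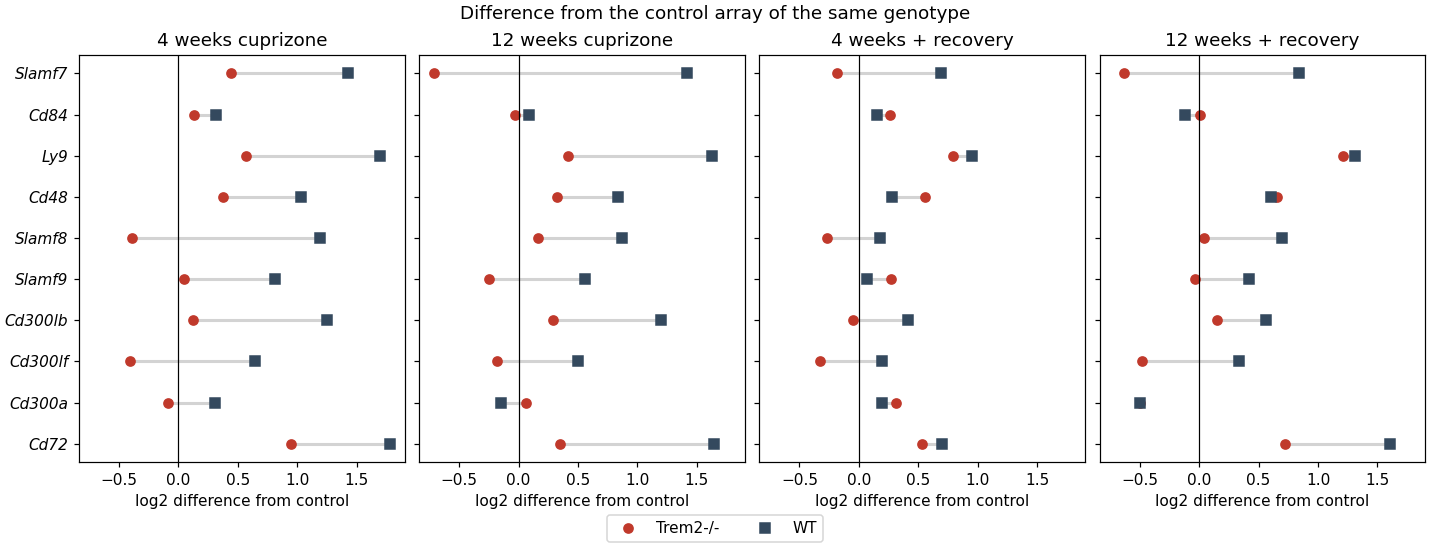
Difference of each cuprizone or recovery array from the control array of its genotype (log2, horizontal axis) for the 10 receptor genes; Trem2-/- arrays are red circles and WT arrays dark squares, joined by a grey line, with 1 panel for each condition. On cuprizone the WT squares of most genes lie to the right of the Trem2-/- circles, and the distance is shorter for most genes after 4 weeks with recovery.

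The fitted WT responses were 1.71 ± 0.39 for Cd72 (limma, adjusted p = 0.344), 1.66 ± 0.27 for Ly9 (0.0965), 1.42 ± 0.43 for Slamf7 (0.699) and 1.22 ± 0.22 for Cd300lb (0.150). Those of Slamf8 (1.03 ± 0.34), Cd48 (0.93 ± 0.24), Slamf9 (0.68 ± 0.27), Cd84 (0.20 ± 0.25) and Cd300a (0.08 ± 0.41) also missed the threshold. With feeding time as a block, 2 members were called higher in WT, against 0.945% of all genes: Ly9 (1.59 ± 0.24, limma, adjusted p = 0.0146) and Cd300lb (1.17 ± 0.19, 0.0241). In Trem2-/- the largest responses were those of Cd72 (0.65 ± 0.39), Ly9 (0.49 ± 0.27) and Cd48 (0.35 ± 0.24). Both responses rest on 1 control array for each genotype, whose spread was taken from the other groups. Because Cd300lb had entered the test only through the WT cuprizone arrays, its WT call is a description.

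The test of the difference between the responses, Trem2-/- minus WT, called no member in limma and 0.00927% of all genes lower. It was negative for all 9 tested members, with a median of -1.02, against 0.0013 over all genes, and 4 of 9 had an unadjusted p under 0.05, against 1.47% of all genes. The largest differences were those of Slamf7 (-1.56 ± 0.61), Ly9 (-1.17 ± 0.38), Slamf8 (-1.15 ± 0.47), Cd72 (-1.06 ± 0.55) and Cd300lb (-1.02 ± 0.32). That of Cd300lb is a description, since the gene entered the test only through WT cuprizone arrays. With feeding time as a block the count of members called was again 0, against 0.0834% of all genes called lower.

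Return to normal food was followed by lower values in WT and by no common direction in Trem2-/-. In Trem2-/- 5 of the 9 tested members were higher in recovery than on cuprizone and 4 lower, with a median of 0.0020, and in WT all 9 were lower, with a median of -0.53. No member was called in either genotype by limma, as was true of all 10792 genes, and an unadjusted p under 0.05 was reached by 1 member in Trem2-/-, against 0.593% of all genes, and by 3 in WT, against 2.73%. In Trem2-/- the largest difference was that of Ly9 (0.51 ± 0.22), and in WT those of Cd300lb (-0.73 ± 0.18) and Slamf7 (-0.66 ± 0.35). The WT fall of Cd300lb is a description, since the gene entered the test only through WT cuprizone arrays. Both recovery arrays lay below the cuprizone arrays of the same feeding time for Cd300lb alone in Trem2-/-, against 22.8% of all genes, and for each of the 10 members in WT, against 29.5%. Slamf9, Cd84, Cd48 and Ly9 were higher in both Trem2-/- recovery arrays and lower in both WT recovery arrays, a pattern of 6.34% of all genes. With feeding time as a block no member was called in WT, against 0.0649% of all genes called lower. Cd72 is a case where the feeding times parted: after recovery its WT level was 6.56 for 4 weeks of feeding and 7.46 for 12 weeks, against 7.64 and 7.50 on cuprizone. The values in recovery and on cuprizone share their arrays with the genotype comparisons above.

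No receptor passed the test for feeding time. Between 12 and 4 weeks, over the 8 arrays of cuprizone and recovery, 0 of 9 tested members passed the test, 1 had an unadjusted p under 0.05, against 36.6% of all genes, and 5 were higher and 4 lower, with a median of 0.04. Of all genes, 20.3% were called, 8.22% higher and 12.1% lower. The largest differences were those of Cd300a (-0.45 ± 0.16, limma, adjusted p = 0.0678), Slamf7 (-0.37 ± 0.19) and Cd84 (-0.23 ± 0.10, limma, adjusted p = 0.139). All 12-week arrays belong to a second run of the submitters' sample numbers, so feeding time and run cannot be told apart. Markers of other myeloid cells were lower at 12 weeks: 6 of 6 tested neutrophil genes (median -3.96), 7 of 8 border macrophage genes (median -1.22) and 3 of 3 monocyte genes (median -1.84) were called by limma, as were 3 of 9 microglia markers. Their part in the results for feeding time was not tested.

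The levels of 8 tested members ran in parallel over the 10 arrays. Without Cd300a, the 28 pairs of members had Pearson correlations of 0.62 to 0.96, with a median of 0.86, and the closest pair was Cd48 and Ly9. Cd300a correlated with the other 8 at -0.01 to 0.61. The points share genotype and diet, and the correlations describe these 10 arrays only. The members were listed with earlier results of these data known, and Cd300a was set apart by these same correlations. The parallel course is therefore a description and not a test. Among all other tested genes, Cd300lb was most like Itgax (r = 0.984), the integrin subunit CD11c, followed by Cd44 (0.977) and Olr1 (0.976), over 10 arrays. Slamf7 was most like Srebf2 (0.977), a regulator of sterol synthesis, Cd52 (0.967) and Itpripl2 (0.964). Cd72 was most like Psen2 (0.967), a presenilin, Cxcr4 (0.966), a chemokine receptor, and St8sia6 (0.962), a sialyltransferase. Ly9 was most like Anxa5 (0.982), AI504432 (0.981) and Lilrb4a (0.978), an inhibitory receptor. Cd48 was most like Tlr1 (0.973), Nsa2 (0.972) and Anxa5 (0.972), and Slamf9 like Rai14 (0.971), Atp5k (0.960) and St8sia6 (0.956). Slamf8 was most like Cxcl14 (0.958), Fmn1 (0.956) and Dgkh (0.956). Cd84 was most like Tbc1d8 (0.933), Ccdc28a (0.921) and Slc35c1 (0.917), and Cd300a like Sgf29 (0.950), Klhl24 (0.947) and Tmco1 (0.943).

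The tested relatives of the same families had list medians nearer 0 than the members had. Members and lists were chosen with earlier results of these data known, so this contrast is a description only. Member Cd300a (-0.15) lay nearer 0 than the other tested members but farther from 0 than most of the tested relatives. Of 5 other SLAM family genes listed, 3 were tested, with a median matched difference of -0.08 and no call by limma. Slamf1, a self-binding receptor of activated lymphocytes and macrophages, lay on the other side of 0. It measured 5.63, 5.59, 5.5, 5.45 and 5.86 in Trem2-/- microglia, against 5.52, 4.70, 4.83, 5.16 and 4.76 in WT microglia. Trem2-/- was higher in all 5 conditions (0.61 ± 0.14, limma, adjusted p = 0.142). Slamf6 (-0.08 ± 0.09) and Cd244a (-0.10 ± 0.09), the receptor of Cd48, lay near 0. In the reference gene order of mouse chromosome 1, Ly9, Slamf7, Cd48, Slamf1, Cd84 and Slamf6 follow in that order in one cluster. Of these genes, only Slamf1, with the limit just given, had a positive matched difference.

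Of 10 other CD300 family genes listed, 4 were tested, with a median matched difference of -0.09 and no call by limma. Cd300c2 (-0.11 ± 0.09), Cd300c (0.11 ± 0.11) and Cd300ld (-0.17 ± 0.25) lie in the same cluster on chromosome 11 as Cd300lb, whose gap was -0.98. Cd300c2 was bright and level, at 11.45, 11.58, 11.42, 11.58 and 11.11 in Trem2-/- microglia, against 11.53, 11.72, 11.40, 11.67 and 11.37 in WT microglia. Probe sequences were not used here, so binding of a probe to related genes was not checked.

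No gene for the proteins that carry the receptors' signals passed the test of genotype. Of 17 signalling partners listed, 12 were tested, 6 higher and 6 lower in Trem2-/-, with a median of -0.01 and no call by limma. Tyrobp, the adaptor of Cd300lb and Trem2, lay between 12.42 and 12.65 on all 10 arrays (-0.04 ± 0.08). Ptpn6, the phosphatase recruited by Cd72, differed by -0.05 ± 0.09, and Sema4d, its ligand, by -0.06 ± 0.10. The largest partner difference was that of Fyn, a kinase of SLAM signalling chosen here after its values were seen (-0.49 ± 0.13, limma, adjusted p = 0.213). The SLAM adaptor genes Sh2d1a, Sh2d1b1 and Sh2d1b2 stayed below the table median on every array and were not tested. Between 12 and 4 weeks, 4 of the 12 were called lower by limma, against 12.1% of all genes: the kinases Syk (-0.56 ± 0.13, adjusted p = 0.0182) and Btk (-0.44 ± 0.12, 0.0296), the lipid phosphatase Inpp5d (-0.49 ± 0.12, 0.02) and the adaptor Blnk (-0.48 ± 0.13, 0.0313).

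Other inhibitory receptors with ITIMs lay on both sides of 0. Of 17 listed, 14 were tested, 6 higher and 8 lower in Trem2-/- over the matched conditions. The call, against 0.0741% of all genes called higher, was that of Pecam1, an adhesion molecule of endothelial and myeloid cells, which was higher in Trem2-/- (0.63 ± 0.09, limma, adjusted p = 0.0236). Its levels were 6.51, 6.04, 6.35, 6.26 and 5.99 in Trem2-/- microglia, against 6.04, 5.46, 5.58, 5.51 and 5.42 in WT microglia. Lilrb4a measured 7.84, 8.42, 8.77, 9.08 and 9.62 in Trem2-/- microglia, against 8.22, 10.17, 10.17, 9.18 and 9.75 in WT microglia. It stood apart by genotype on cuprizone (-1.58 ± 0.27, limma, adjusted p = 0.0759) and less so in recovery. Cd22, a sialic acid receptor of B cells chosen here after its values were seen, was lower in Trem2-/- in all 5 conditions (-0.78 ± 0.17, limma, adjusted p = 0.114). That pattern was shown by 6.1% of all tested genes. Between 12 and 4 weeks, 6 of the 14 were called lower by limma, against 12.1% of all genes, beside the neutrophil, border macrophage and monocyte markers called lower there: Pirb (-0.96 ± 0.12, adjusted p = 0.00125), Clec12a (-0.90 ± 0.13, 0.00206), Pilra (-0.58 ± 0.12, 0.00961), Lair1 (-0.52 ± 0.11, 0.0101), Cd200r1 (-0.61 ± 0.17, 0.0338) and Cd33 (-0.35 ± 0.10, 0.0397).

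**Figure D5:**
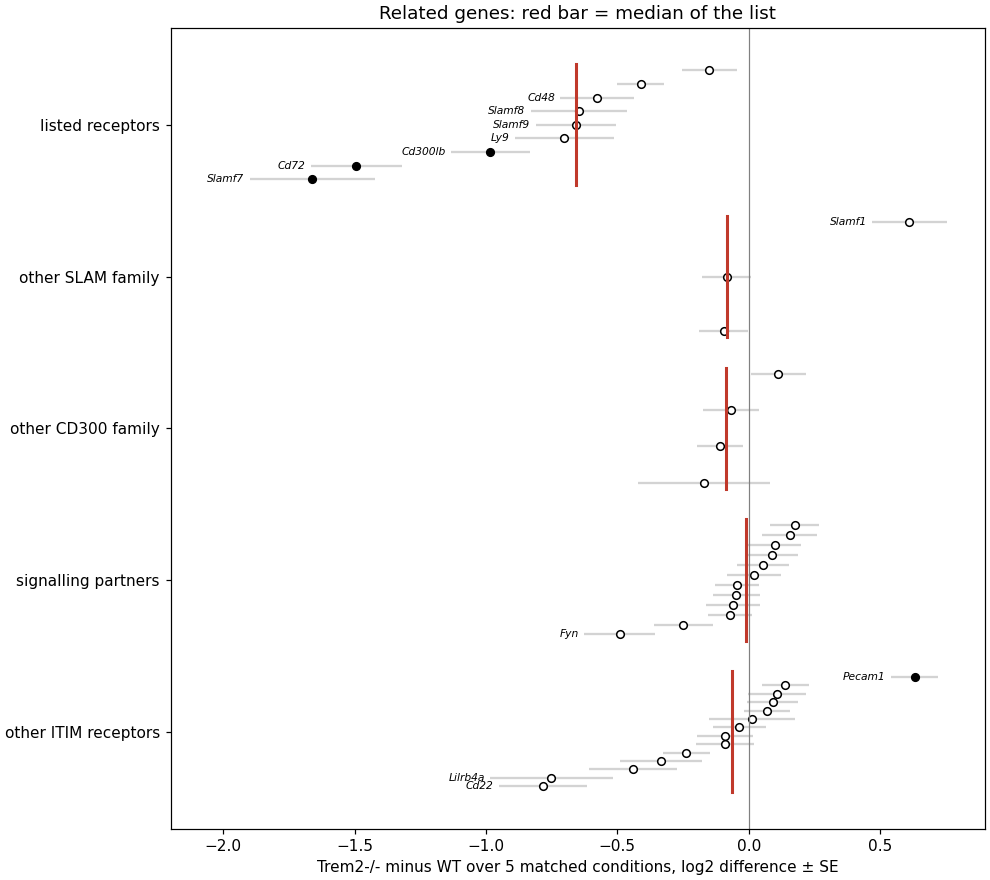
Matched log2 difference, Trem2-/- minus WT over 5 conditions (points, with SE as grey bars), for the tested genes of 5 lists: the listed receptors, other SLAM genes, other CD300 genes, signalling partners and other ITIM receptors. The red bars are list medians and filled points have an adjusted p under 0.05. The median is -0.66 for the listed receptors and between -0.09 and -0.01 for the other 4 lists. All lists were chosen with earlier results of these data known.

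Promoter sequences of 4 members are shown because the levels of these genes ran in parallel over the arrays: the 3 with a matched call (Slamf7, Cd72 and Cd300lb) and Slamf8, whose promoter held the most motifs. Each is the RefSeq sequence of build GRCm38.p6 from 250 bases before to 50 bases after the gene's start, read 5′ to 3′ on the gene's strand. Motif matches are in capitals. The regions are chr1:171648950-171649249 (minus strand) for Slamf7, chr4:43454577-43454876 (minus strand) for Cd72, chr11:114934322-114934621 (minus strand) for Cd300lb and chr1:172590519-172590818 (minus strand) for Slamf8.
Slamf7: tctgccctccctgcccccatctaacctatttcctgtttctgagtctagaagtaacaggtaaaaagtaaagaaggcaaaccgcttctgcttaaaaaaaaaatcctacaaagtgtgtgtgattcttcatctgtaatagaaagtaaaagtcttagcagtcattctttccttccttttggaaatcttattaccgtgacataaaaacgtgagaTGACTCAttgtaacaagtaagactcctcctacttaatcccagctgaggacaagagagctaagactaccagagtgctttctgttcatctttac
Cd72: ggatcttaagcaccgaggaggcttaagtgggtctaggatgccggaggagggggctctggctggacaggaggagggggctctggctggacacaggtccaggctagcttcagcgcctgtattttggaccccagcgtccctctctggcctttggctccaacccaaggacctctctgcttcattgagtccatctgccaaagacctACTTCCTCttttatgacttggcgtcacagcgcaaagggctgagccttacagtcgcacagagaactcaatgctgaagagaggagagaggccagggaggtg
Cd300lb: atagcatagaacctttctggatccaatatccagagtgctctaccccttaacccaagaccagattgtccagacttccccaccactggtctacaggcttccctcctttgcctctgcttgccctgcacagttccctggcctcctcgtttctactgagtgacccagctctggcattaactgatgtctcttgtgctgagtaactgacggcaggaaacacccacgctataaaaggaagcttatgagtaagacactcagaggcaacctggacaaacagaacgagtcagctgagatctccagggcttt
Slamf8: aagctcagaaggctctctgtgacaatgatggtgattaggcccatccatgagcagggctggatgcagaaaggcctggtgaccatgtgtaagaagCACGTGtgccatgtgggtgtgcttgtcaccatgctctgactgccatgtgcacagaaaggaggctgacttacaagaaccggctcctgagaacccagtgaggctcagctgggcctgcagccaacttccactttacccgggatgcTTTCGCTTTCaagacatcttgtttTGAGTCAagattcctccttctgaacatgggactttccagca

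A promoter was given for 9 of the 10 members. On both strands, 4 motifs were searched: GAGGAAGT, a PU.1 type site, TGANTCA, the AP-1 site, an interferon regulatory factor site made of GAAA, any 2 bases and GAAA, and CACGTG, the E-box bound by MiT/TFE factors. The capitals mark an AP-1 match in Slamf7, a PU.1 type match in Cd72, and an AP-1, an interferon regulatory factor and an E-box match in Slamf8, while Cd300lb held none. The PU.1 type motif was in 3 of 9 promoters (Slamf9, Cd72 and Cd300lf), against 3.20% of 32851 promoters. The AP-1 motif was in 3 of 9 (Slamf7, Cd84 and Slamf8), against 7.81%. The E-box was in 2 of 9 (Slamf9 and Slamf8), against 7.15%, and the interferon regulatory factor motif in 1 of 9 (Slamf8), against 3.44%. No motif was shared by the 3 genes with a matched call, and a match in these letters is a description of the sequence only.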

How the data were processed

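RNA of flow-sorted microglia was hybridised to 1 array per sample after amplification with biotin labelling, per the labels' protocols. The deposited table holds linear intensity values, and the sources used here do not state how probes were summarized, background-corrected or normalized. Log2 was taken of the deposited values with no further scaling. Of 24567 probes, 21259 named 1 gene, 1274 several and 2034 none in the platform annotation. The brightest single-gene probe was kept per gene, and genes above the table median on at least 2 arrays were tested (10792 of 19749).

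Tests used limma 3.58.1 in R 4.3.3 with Benjamini-Hochberg adjustment over the 10792 genes and a threshold of 0.05. The matched comparison took condition as a block, and its residual spread came from the variation of the genotype gap between conditions. A 6-group model (4 residual degrees of freedom) gave the other contrasts. Its residual spread came from the differences between the arrays titled 4 and 12 weeks within groups. The comparison of 12 against 4 weeks took group as a block (3 residual degrees of freedom). The models were tested on simulated data. Named genes were the members, their 3 most correlated genes each, and list genes called in any comparison (otherwise up to 3 with the largest genotype difference on cuprizone). Members and lists were chosen with earlier results of these data known. Alternatives were other filters, offsets, scalings, blocks, runs and leaving out each array.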

Additional observations from a re-analysis of the deposited data

Results flagged for a closer look

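From cuprizone to recovery, 4 SLAM genes went in opposite directions in the genotypes, higher in both Trem2-/- arrays and lower in both WT arrays. Recovery minus cuprizone for Ly9 was 0.22 and 0.80 in Trem2-/- (4 and 12 weeks of feeding), against -0.75 and -0.32 in WT, a difference between genotypes of 1.04. For Cd48 it was 0.19 and 0.33 in Trem2-/-, against -0.75 and -0.23 in WT, a difference of 0.75. For Slamf9 it was 0.23 and 0.21 in Trem2-/-, against -0.75 and -0.13 in WT, a difference of 0.66. For Cd84 it was 0.12 and 0.04 in Trem2-/-, against -0.16 and -0.21 in WT, a difference of 0.26. These differences were not tested, and 6.34% of all genes tested show the same pattern.

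Cd300lf went in opposite directions from control to cuprizone. Cuprizone minus control was -0.41 and -0.18 in Trem2-/-, against 0.64 and 0.50 in WT, a difference of -0.86. With no filter on dim genes this difference had an unadjusted limma p of 0.0219, which did not survive adjustment over all genes. The gene lay below the table median on 9 of 10 arrays.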

How the results depend on the processing

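In the comparisons that called members, 18 of 37 alternative counts stayed within 1.5 times the value as reported. In those with 0 calls, 116 of 121 stayed at 0, which shows little of stability. Of 73 alternative values of the called members, 43 kept the call, 30 lost it and 0 reversed. Over the matched conditions the 3 calls became 0 with the conflicting array counted as 4 weeks and 0 in the first run only, and 0 to 3 on leaving out 1 array: 0 without either 4-week cuprizone array, 1 without any other cuprizone or recovery array. On cuprizone the 1 call became 0 when at least 5 arrays had to exceed the table median, 2 with log2(value + 16), 7 with the replicate block by titled feeding duration and 4 with that block and the conflicting array as 4 weeks; leaving out 1 array gave 0 to 2, and Cd300lb lost its call without any of the 4 cuprizone arrays. For WT cuprizone against control the 0 calls became 2 with the replicate block and 1 with the conflicting array as 4 weeks; leaving out 1 array gave 0 to 0. Between 12 and 4 weeks the 0 calls became 1 (Cd300a) with log2(value + 16), and leaving out 1 array gave 0 to 1, again Cd300a, without either Trem2-/- cuprizone array. The cause of these changes was not tested. The block pairs arrays by titled feeding time, since the labels give no replicate numbers. With 4 residual degrees of freedom, and with levels of Cd300lb and Cd300lf near background, differences of the size seen in the other members could be missed.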
